A study of Homo sapiens with 8 samples.

Results

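The 10 genes described here were YAP1 and WWTR1, which encode the transcriptional coactivators YAP and TAZ, the 4 TEAD genes (TEAD1, TEAD2, TEAD3 and TEAD4), which encode their DNA-binding partners, and 4 genes that the pathway controls or is controlled by, LATS2, AMOTL2, ANKRD1 and AXL. They were chosen by name from the 60282 genes listed, and all 10 were among the 14073 genes tested. The cells were SK-UT-1, an established line from a human uterine leiomyosarcoma, a malignant tumor of uterine smooth muscle. One group of 4 libraries came from cells given vehicle (DMSO), and the other group of 4 came from cells given TP-472, a small-molecule inhibitor of the bromodomain proteins BRD9 and BRD7, at 5 µM for 48 h. BRD9 is a subunit of one form of the BAF chromatin remodeling complex, and the comparison asked how its inhibition altered the transcriptome of these cells. All 8 libraries were of 1 cell line with no introduced transgene or deletion given, and the study's methods speak of biological replicates for its experiments in general. The labels do not say whether these replicates were separate cultures, so the p-values measure the spread between these libraries, which may be technical. Total counts ran from 32574672 to 36634103 in the vehicle libraries and from 36246277 to 38545464 in the TP-472 libraries.

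YAP and TAZ are the end point of the Hippo pathway. When the kinases STK3 and STK4 and then LATS1 and LATS2 are active, YAP and TAZ are phosphorylated, held in the cytoplasm by 14-3-3 proteins and degraded; when the kinases are quiet, as in spread cells on a stiff matrix, YAP and TAZ enter the nucleus and bind TEAD proteins at target genes such as CCN1, CCN2 and ANKRD1. LATS2 and AMOTL2 are both inhibitors of YAP and TAZ and their targets, which closes a feedback loop. RNA-seq reads the amount of RNA only, and the phosphorylation and location of YAP and TAZ were not measured here.

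In brief, the RNA of the coactivators moved little with TP-472, TEAD3 and AXL fell, TEAD2 fell by a fold close to the limit, and the low-level target ANKRD1 rose. Among the most used readouts of YAP and TAZ, CCN2 was 4.77-fold higher whereas the difference of CCN1 lay within the spread of the libraries. A gene was called when its adjusted p from edgeR's quasi-likelihood test was under 0.05 and its fold change was over 1.5. Of the 10 genes, 4 were called, 1 higher and 3 lower, against 26.9% of all genes tested (12.0% higher and 14.9% lower). An adjusted p under 0.05 with no limit on the fold was reached by 5 of the 10, against 36.3% of all genes. The groups did not overlap for 5 of the 10, against 45.4% of all genes. The gene called higher was ANKRD1, which passed the filter on low counts only through the TP-472 libraries. It had to differ to be tested and is in each of these counts. A filter of 5 CPM left ANKRD1 out. With it 3 of 9 genes were called, all lower, beside 2672 of 11067 over all genes.

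TEAD proteins bind a short element whose core is GGAATG, read on either strand as GGAATG or CATTCC. These letters were searched in RefSeq promoter windows on GRCh38.p14, from 250 bases before to 50 bases after each start site. The table held 13 promoters for 9 of 12 genes looked for, the 10 genes above with CCN1 and CCN2. The CCN2 window held 3 copies and is printed because CCN2 and ANKRD1 were the genes with more than 1 copy. The 250 bases before the CCN2 start site, at chr6:131951373-131951622 on the minus strand, were as follows, with each GGAATG in capitals.
CCN2: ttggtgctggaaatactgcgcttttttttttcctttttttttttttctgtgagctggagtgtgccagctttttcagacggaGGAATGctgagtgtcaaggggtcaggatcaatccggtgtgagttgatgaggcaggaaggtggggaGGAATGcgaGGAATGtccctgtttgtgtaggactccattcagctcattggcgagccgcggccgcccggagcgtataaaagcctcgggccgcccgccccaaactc
The ANKRD1 window held 2 copies, at -220 and -128 from the RefSeq start site. They are shown in stretches of 30 bases, on the minus strand, at chr10:90921290-90921319 and chr10:90921198-90921227, again with GGAATG in capitals.
ANKRD1 at -220: atcaccaccaaaGGAATGgccctctcacat
ANKRD1 at -128: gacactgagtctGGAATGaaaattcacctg
GENCODE release 29 starts ANKRD1 189 bases further upstream than RefSeq, so the copy at -128 lies downstream of the start site by that annotation. One copy each was found for YAP1 (at -162), for LATS2 (at 10 bases after the start), for the second of 2 AMOTL2 promoters (at -69) and for the second of 2 AXL promoters (at -212). No copy was found in the windows of WWTR1, TEAD2 and TEAD3. TEAD1, TEAD4 and CCN1 were not in the table. Among the 35116 promoters of the whole table, a share of 14.0% held at least 1 copy, 1.37% at least 2 and 0.128% at least 3. A match of letters is a description and does not show binding.

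Vehicle replicate 3 stood apart and is treated before the results. Its median Spearman correlation with the other vehicle libraries was 0.914, where the other vehicle libraries had 0.988 to 0.989 and the TP-472 libraries 0.993 to 0.997. Its deviation from the mean of all libraries rose with the GC content of the gene (Spearman correlation of 0.70 across genes, which are not independent replicates), and in the other libraries this value lay between -0.46 and -0.08. Of the 10 genes 6 had their highest vehicle level in this library, namely TEAD2, TEAD3, TEAD4, LATS2, AMOTL2 and AXL. These are the 6 with a GC content of 53.0% or more. AMOTL2 (59.6% GC) stood at 1.96 times the mean of the other vehicle libraries, TEAD3 (60.3%) at 1.81 times, LATS2 (53.0%) at 1.68 times and TEAD4 (62.7%) at 1.67 times. In contrast, YAP1 (45.7% GC) stood at 0.960 times, TEAD1 (42.8%) at 1.02 times and WWTR1 (49.0%) at 1.05 times. The values of the 10 genes are therefore also given without this library. Without it 3 of the 10 genes were called, against 25.5% of all genes, and 7 had groups without overlap, against 58.5% of all genes. With each library's trend against GC content removed 4 of the 10 were called, against 28.2% of all genes. ANKRD1 is again in each of these counts. The trend was taken from deviations from the mean of all 8 libraries. Its removal can therefore also alter a difference between the treatments that follows GC content.

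**Figure D1:**
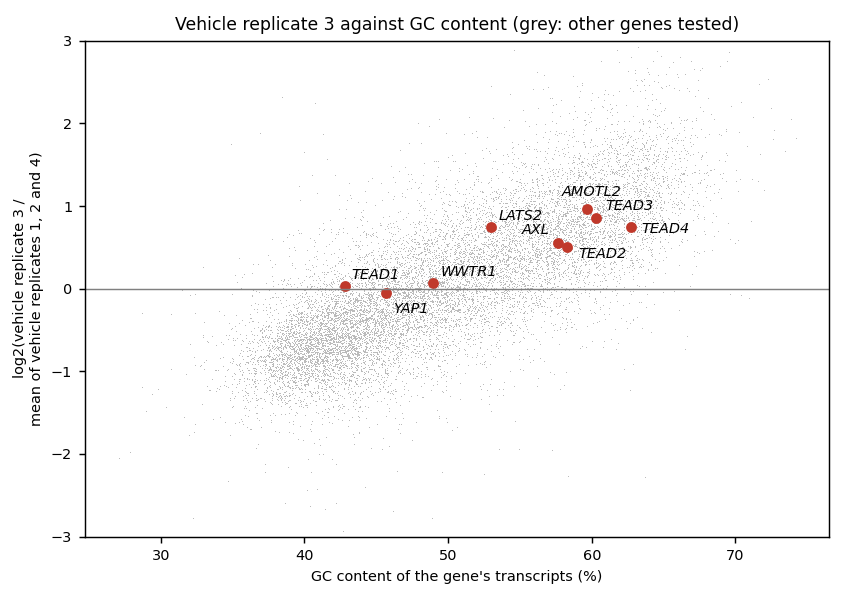
Level of each gene in vehicle replicate 3 relative to the mean of vehicle replicates 1, 2 and 4 (log2, vertical axis) against the GC content of its transcripts in percent (horizontal axis); red points are the genes of this report without ANKRD1, which was at 0 in that library, and grey points are the other genes tested. The 6 genes of 53.0% GC or more lie above 0, and YAP1, TEAD1 and WWTR1 lie near 0.

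BRD9 and BRD7, the targets of the inhibitor, were expressed in all libraries. BRD9 had 80.1 ± 23.1 CPM with vehicle and 71.5 ± 3.17 with TP-472 (mean ± SD, n = 4), and BRD7 had 56.2 ± 0.583 and 60.8 ± 2.65 CPM. Neither was called (log2 fold change of -0.16 ± 0.179 SE and 0.11 ± 0.086 SE, edgeR adjusted p of 0.486 and 0.324). Vehicle replicate 3 was at 115 CPM for BRD9 and the other vehicle libraries at a mean of 68.7 CPM, and without it the sign turned for BRD9, to 0.06 ± 0.061 on the log2 scale (adjusted p = 0.440, over alternatives 0.318 to 0.695), while BRD7 stayed at 0.11 ± 0.057.

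YAP1 (ENSG00000137693, chr11:102110461-102233423 on the plus strand of GRCh38) encodes YAP. Its level, in CPM scaled by the TMM method, was 155, 140.0, 139 and 139 in the vehicle libraries, given here and below in the order of the replicate numbers, and 114, 104, 110.5 and 126 in the TP-472 libraries. Every TP-472 library lay below every vehicle library. The difference was small, 1.26-fold lower with TP-472 (log2 fold change of -0.34 ± 0.098 SE, edgeR adjusted p = 0.0270), and YAP1 was not called because the fold was under the limit. Without vehicle replicate 3 the change came to -0.35 ± 0.076 on the log2 scale (adjusted p = 0.00336), and to -0.45 ± 0.083 with the trend against GC content removed (adjusted p = 0.00187). The adjusted p ran from 0.00187 to 0.102 over the 16 alternatives in edgeR, DESeq2 and limma-voom, and the log2 fold change from -0.45 to -0.30.

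WWTR1 (ENSG00000018408, chr3:149517235-149736714, minus strand) encodes TAZ, the paralog of YAP. It was at 64.2, 57.8, 63.1 and 59.2 CPM in the vehicle libraries and at 52.9, 52.6, 54.2 and 67.1 CPM in the TP-472 libraries. TP-472 replicates 1, 2 and 3 lay below all vehicle libraries, and TP-472 replicate 4 lay above them all. The log2 fold change was -0.11 ± 0.111 SE (edgeR adjusted p = 0.464), or -0.09 ± 0.093 without vehicle replicate 3, -0.20 without TP-472 replicate 4, and WWTR1 was called in 0 of the 16 alternatives. Per kilobase of exon, YAP1 stood at 22.8 ± 1.28 CPM and WWTR1 at 7.26 ± 0.366 CPM in the vehicle libraries, so YAP1 RNA was 3.14 ± 0.138 times as abundant (3.20 ± 0.056 without vehicle replicate 3), and with TP-472 2.69 ± 0.155 times. By the length of the longest coding transcript, a choice made after seeing the data, these ratios were 2.19 ± 0.0961 and 1.87 ± 0.108.

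The TEAD genes did not move together. TEAD1 (ENSG00000187079, chr11:12674591-12944483, plus strand) had 222, 172, 192 and 171 CPM with vehicle and 172, 156, 150.3 and 224 CPM with TP-472. TP-472 replicates 2 and 3 lay below all vehicle libraries and TP-472 replicate 4 lay above them all. The log2 fold change was -0.11 ± 0.154 SE (edgeR adjusted p = 0.596), or -0.10 ± 0.147 without vehicle replicate 3. It was -0.02 without vehicle replicate 1, -0.25 without TP-472 replicate 4 and -0.30 with GC content removed, and TEAD1 was called in 0 of the 16 alternatives.

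TEAD2 (ENSG00000074219, chr19:49340595-49362457, minus strand) had 40.6, 39.2, 55.9 and 38.9 CPM with vehicle and 28.6, 30.3, 29.2 and 24.9 CPM with TP-472. All TP-472 libraries lay below all vehicle libraries, also when vehicle replicate 3 was left out. TEAD2 fell 1.55-fold (log2 fold change of -0.63 ± 0.144 SE, edgeR adjusted p = 0.0103), which is just past the fold limit. Without vehicle replicate 3 the value was -0.49 ± 0.075 (adjusted p = 4.92e-04) and with GC content removed -0.36 ± 0.075 (adjusted p = 0.00343), both under the fold limit. It was -0.57 without TP-472 replicate 4, also under that limit. The call held in 13 of the 16 alternatives, and the adjusted p ran from 4.92e-04 to 0.0338 over all 16.

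TEAD3 (ENSG00000007866, chr6:35473597-35497076, minus strand) had 10.1, 9.89, 17.3 and 8.57 CPM with vehicle and 5.75, 6.06, 4.72 and 5.36 CPM with TP-472. The groups did not overlap with or without vehicle replicate 3. TEAD3 fell 2.09-fold (log2 fold change of -1.07 ± 0.228 SE, edgeR adjusted p = 0.00759). Without vehicle replicate 3 it fell by 0.80 ± 0.116 on the log2 scale (adjusted p = 3.35e-04), and it was called in 16 of the 16 alternatives (log2 fold change from -1.18 to -0.69, adjusted p from 7.06e-05 to 0.0298).

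TEAD4 (ENSG00000197905, chr12:2959330-3040673, plus strand) had 23.0, 25.0, 40.5 and 24.8 CPM with vehicle and 33.98, 34.2, 34.2 and 26.8 CPM with TP-472. Vehicle replicate 3 was the highest of the 8 libraries, and the other vehicle libraries lay below all TP-472 libraries. TEAD4 was not called (log2 fold change of 0.19 ± 0.193 SE, edgeR adjusted p = 0.461). Without vehicle replicate 3 its log2 fold change was 0.41 ± 0.097 (adjusted p = 0.00521, under the fold limit), and with GC content removed it was called higher, at 0.61 ± 0.102 (adjusted p = 0.00110, over alternatives 0.00110 to 0.724). Both changes together gave 0.54 ± 0.081 (adjusted p = 5.28e-04), again under the fold limit.

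Summed per kilobase of exon, the TEAD genes amounted to 49.3 ± 8.11 CPM with vehicle and 42.6 ± 1.18 CPM with TP-472. TEAD1 held 37.8% ± 5.64 of this sum with vehicle and 40.0% ± 6.73 with TP-472, which is a smaller difference than the SD. The share of TEAD2 was 29.7% ± 1.19 and 22.3% ± 2.27, and that of TEAD3 was 7.49% ± 1.26 and 4.22% ± 0.400. TEAD4 held 25.0% ± 3.47 with vehicle and 33.4% ± 4.41 with TP-472. With vehicle replicate 3 left out the sum with vehicle was 45.4 ± 2.87 CPM per kilobase, and the shares were 40.2% ± 3.66 for TEAD1, 29.3% ± 1.13 for TEAD2, 6.88% ± 0.437 for TEAD3 and 23.6% ± 2.47 for TEAD4 (n = 3). These shares were not tested.

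**Figure D2:**
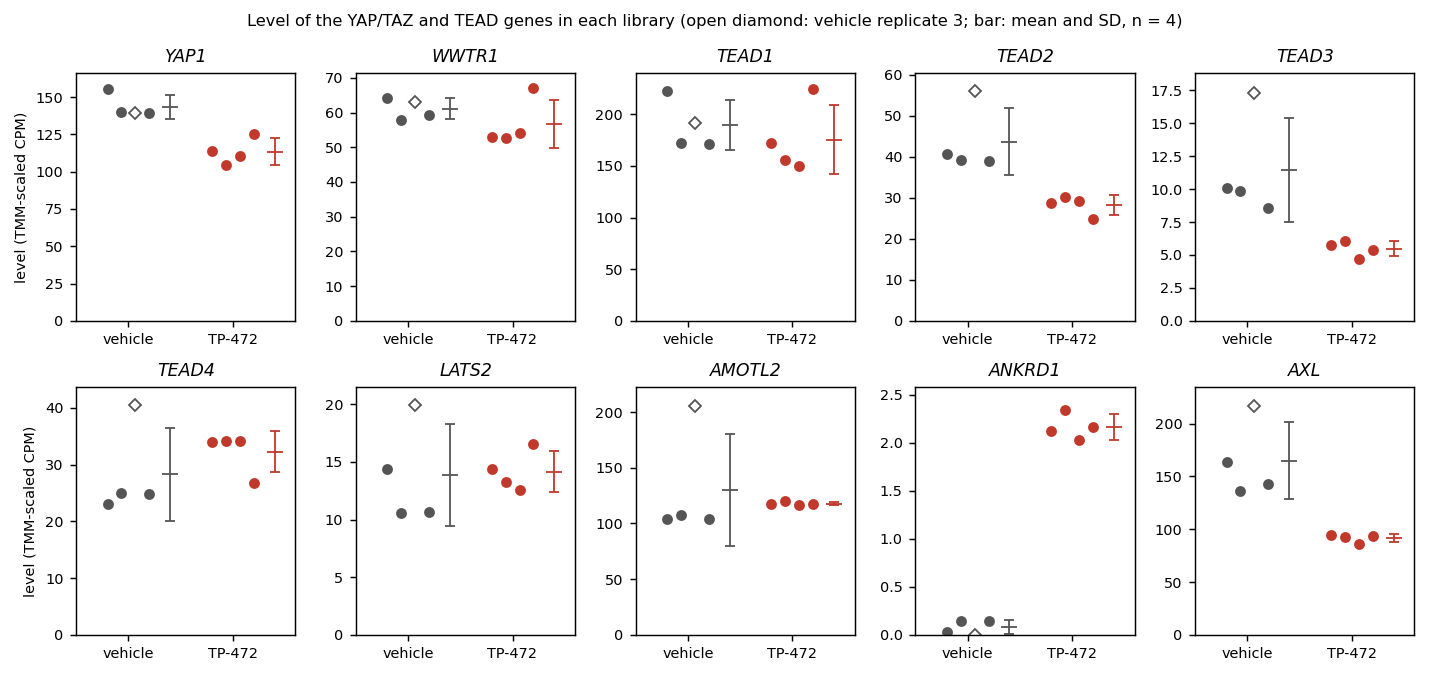
Level of each of the 10 genes in TMM-scaled CPM (vertical axes, from 0) in the 4 vehicle libraries (grey) and the 4 TP-472 libraries (red), with the mean and SD beside them and vehicle replicate 3 as an open diamond. The groups do not overlap for YAP1, TEAD2, TEAD3, ANKRD1 and AXL, and the diamond lies above the other vehicle libraries for 6 genes.

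LATS2 (ENSG00000150457, chr13:20973032-21061547, minus strand) encodes a kinase that phosphorylates YAP and TAZ. Its level was 14.4, 10.6, 19.9 and 10.7 CPM with vehicle and 14.4, 13.2, 12.5 and 16.5 CPM with TP-472. The groups overlapped, with vehicle replicate 3 the highest library. The log2 fold change was 0.03 ± 0.216 SE (edgeR adjusted p = 0.926), it was -0.01 with total-count scaling, and it was 0.25 ± 0.137 without vehicle replicate 3 (adjusted p = 0.140; 0.140 to 0.992 over the alternatives).

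AMOTL2 (ENSG00000114019, chr3:134355874-134375479, minus strand) encodes an angiomotin-like protein that binds YAP at cell junctions. It had 104, 107, 206 and 104 CPM with vehicle and 117, 120.2, 116 and 117 CPM with TP-472. The TP-472 libraries were close to one another and lay between vehicle replicate 3 and the other vehicle libraries. The log2 fold change was -0.14 ± 0.222 SE (edgeR adjusted p = 0.630). Its sign turned without vehicle replicate 3, at 0.17 ± 0.051 (adjusted p = 0.0198), and with GC content removed, at 0.23 ± 0.065 (adjusted p = 0.0174). AMOTL2 was called in 0 of the 16 alternatives, over which the adjusted p ran from 0.0174 to 0.809.

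ANKRD1 (ENSG00000148677, chr10:90912096-90921276, minus strand) encodes a cardiac ankyrin repeat protein and is a direct YAP target in many cell types. The vehicle replicates, in order, held 1, 5, 0 and 5 estimated counts, where the TP-472 replicates held 82, 83, 73 and 82. RNA of this gene was thus close to 0 with vehicle and low but present in each TP-472 library, at 2.16 ± 0.131 CPM. Since only the TP-472 libraries passed the filter of 1 CPM, a gene with these levels had to differ to be tested at all. The ratio of the summed counts, 320 over 11, was 27.7 after allowance for library totals (exact 95% interval of 15.3 to 56.1, counting error only). The fitted log2 fold change was 4.73 ± 0.492 SE (edgeR adjusted p = 2.79e-04), and it was 4.34 ± 0.331 without vehicle replicate 3 (adjusted p = 8.01e-06). ANKRD1 was called in each of the 15 alternatives in which it was tested, with adjusted p from 1.26e-18 in DESeq2 to 0.00410 with the replicate block.

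AXL (ENSG00000167601, chr19:41219203-41261766, plus strand) encodes a receptor tyrosine kinase for GAS6 and is a YAP target. It had 164, 137, 217 and 143 CPM with vehicle and 94.8, 92.7, 86.0 and 93.5 CPM with TP-472. The highest TP-472 level was below the lowest vehicle level. AXL fell 1.80-fold (log2 fold change of -0.85 ± 0.151 SE, edgeR adjusted p = 0.00342). Without vehicle replicate 3 it fell by 0.69 ± 0.074 on the log2 scale (adjusted p = 5.61e-05), and it was called in 16 of the 16 alternatives (log2 fold change from -0.93 to -0.60, adjusted p from 2.00e-06 to 0.0186). Levels in bulk RNA do not tell fewer cells of one kind from less RNA per cell.

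**Figure D3:**
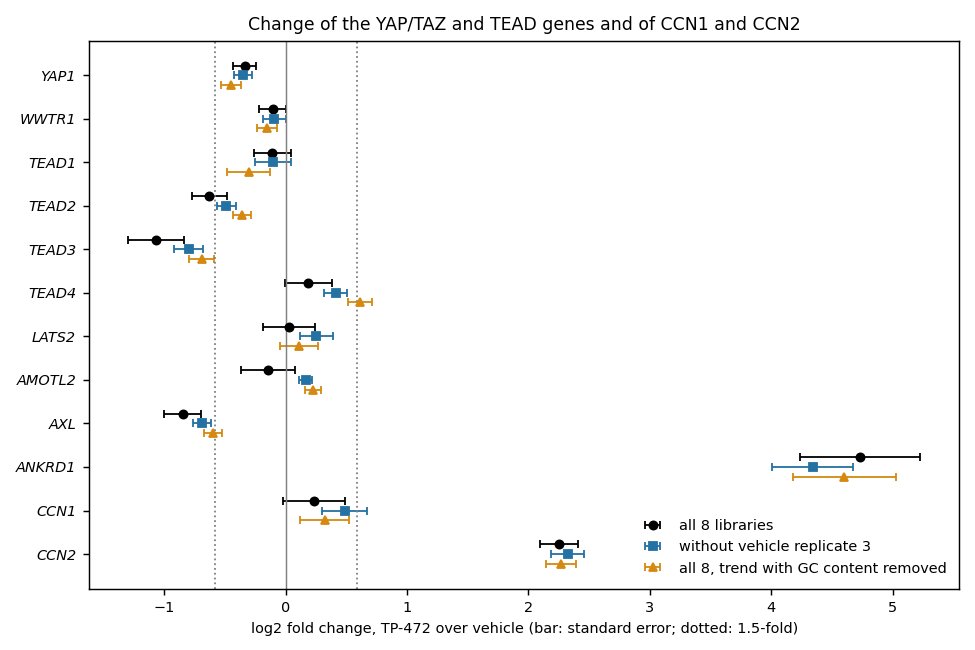
Log2 fold change of TP-472 over vehicle (horizontal axis) with its standard error for the 10 genes and for CCN1 and CCN2, from all 8 libraries (black), without vehicle replicate 3 (blue) and with the trend against GC content removed (orange); dotted lines mark a 1.5-fold change. ANKRD1 and CCN2 lie far above the line, TEAD3 and AXL lie below it in all 3 fits, and AMOTL2 changes sign.

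The order of the 10 levels was also taken per kilobase of exon, in CPM, over the vehicle libraries. AXL was the highest at 32.0 ± 7.07, and none of its libraries overlapped YAP1 at 22.8 ± 1.28. YAP1, AMOTL2 (21.7 ± 8.41), TEAD1 (18.4 ± 2.34), TEAD2 (14.7 ± 2.75) and TEAD4 (12.5 ± 3.60) followed, each overlapping its neighbor when all 4 libraries were used. WWTR1 at 7.26 ± 0.366 was below all libraries of TEAD4 and above all of TEAD3 (3.76 ± 1.29), which overlapped LATS2 (2.49 ± 0.791). ANKRD1 was the lowest at 0.039 ± 0.038. With TP-472 AXL moved from the first to the third place, behind AMOTL2 (19.7 ± 0.270) and YAP1 (18.03 ± 1.42), at 17.8 ± 0.758, although the libraries of AXL and YAP1 overlapped. By the longest coding transcript it was in the fourth place with TP-472, with TEAD1 also above it. Several of these overlaps came from vehicle replicate 3. Without it AMOTL2 (17.5 ± 0.337) came after TEAD1 (18.3 ± 2.86), and this was the one pair of neighbors that still overlapped. TEAD2 (13.3 ± 0.312) and TEAD4 (10.7 ± 0.493) then followed without overlap. By the longest coding transcript AMOTL2 and YAP1 exchanged places and AXL overlapped AMOTL2 with all 4 vehicle libraries, but without vehicle replicate 3 AXL (31.2 ± 3.02), YAP1 (26.8 ± 1.71) and AMOTL2 (23.2 ± 0.446) stood in this order with no overlap.

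CCN2 and CCN1, matricellular proteins secreted by the cell, are the genes most used as a readout of YAP and TAZ. CCN2 (ENSG00000118523, chr6:131948176-131951373, minus strand), whose promoter is printed above, had 9.92, 6.96, 10.2 and 8.60 CPM with vehicle and 38.0, 43.4, 39.8 and 48.9 CPM with TP-472. The lowest TP-472 library lay well above the highest vehicle library. CCN2 rose by 2.25 ± 0.155 on the log2 scale (edgeR adjusted p = 4.49e-05), and by 2.32 without vehicle replicate 3.

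CCN1 (ENSG00000142871, chr1:85580761-85583962, plus strand) had 67.3, 38.49, 87.2 and 42.3 CPM with vehicle and 65.7, 67.8, 61.1 and 82.0 CPM with TP-472. The vehicle libraries were spread widely, with replicates 2 and 4 below and replicate 3 above all TP-472 libraries. Its log2 fold change of 0.23 ± 0.252 SE did not pass (edgeR adjusted p = 0.484), and it was 0.49 without vehicle replicate 3 (adjusted p = 0.0442, 0.0442 to 0.809 over alternatives, under the fold limit in each).

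YAP/TAZ target genes as a list of 22, which includes ANKRD1, AXL, AMOTL2 and LATS2, moved in both directions. Of the 22 genes tested 10 were called, 7 higher and 3 lower, beside 26.9% of all genes (12.0% higher and 14.9% lower), with a median log2 fold change of 0.13 where all genes tested had -0.026. Without the 4 genes above, 8 of 18 were called, 6 higher and 2 lower. IGFBP3, which encodes a binding protein of insulin-like growth factors, rose from 4.93 ± 0.990 to 32.0 ± 2.86 CPM (log2 fold change of 2.70 ± 0.166 SE, edgeR adjusted p = 3.44e-05), or by 2.62 without vehicle replicate 3. ARHGEF17, a guanine nucleotide exchange factor, fell by 1.86 ± 0.398 on the log2 scale (adjusted p = 0.00773). It had 63.1, 44.5, 155 and 44.3 CPM with vehicle and 22.1, 22.8, 16.8 and 23.0 CPM with TP-472, and it fell by 1.26 without vehicle replicate 3, which was the high library. The other genes called are named after their values were seen. GADD45A, a stress response gene, and FJX1, a secreted ligand-like protein, rose by 1.27 ± 0.170 and 1.26 ± 0.248. NT5E, which encodes the ectonucleotidase CD73, rose by 0.94 ± 0.134 and F3, which encodes tissue factor, by 0.85 ± 0.206. RBMS3, an RNA-binding protein, fell by 1.38 ± 0.173 on the same scale. These 5 genes stayed called in the same direction without vehicle replicate 3. The list then had 11 genes called (8 higher, 3 lower), beside 25.5% of all genes, and 13 with GC content removed (9 higher, 4 lower), beside 28.2%. A list of targets taken from other tissues holds genes with other regulators as well, so that its count does not measure the activity of YAP and TAZ.

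**Figure D4:**
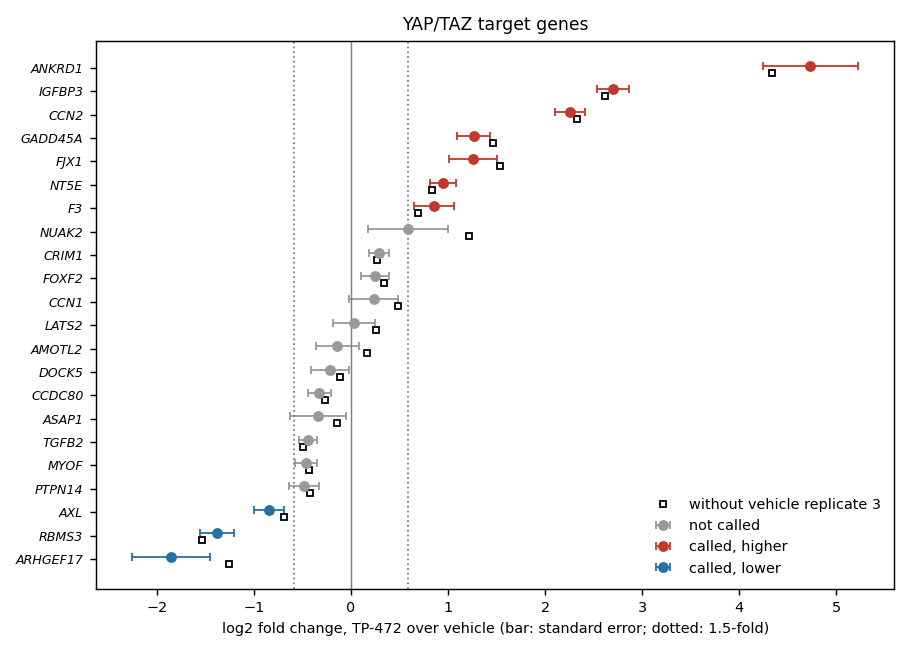
Log2 fold change of TP-472 over vehicle (horizontal axis) with its standard error for the 22 YAP/TAZ target genes, colored by whether the gene was called, with open squares for the value without vehicle replicate 3. The 7 genes called higher lie at the top, from F3 to ANKRD1, and the 3 called lower at the bottom.

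Upstream of YAP and TAZ, 1 of the 12 Hippo core kinases and scaffolds was called, beside 26.9% of all genes (median log2 fold change of -0.10). It was MAP4K2, also without vehicle replicate 3, a kinase that can activate LATS kinases. MAP4K2 had 27.5, 26.4, 53.2 and 25.8 CPM with vehicle and 16.3, 15.2, 13.1 and 13.9 CPM with TP-472. It was lower in every TP-472 library and fell by 1.18 ± 0.243 on the log2 scale (edgeR adjusted p = 0.00644), or by 0.86 without vehicle replicate 3. MOB1A, a LATS cofactor, and MAP4K4 had the highest levels per kilobase of the list, 47.2 and 23.2 CPM with vehicle, and log2 fold changes of -0.05 ± 0.225 and -0.22 ± 0.092 (adjusted p of 0.875 and 0.0914), or -0.25 and -0.26 without vehicle replicate 3, under the fold limit.

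Among 23 junctional and upstream regulators 20 were tested and 8 were called, 5 higher and 3 lower (9 without vehicle replicate 3, 6 higher and 3 lower), beside 26.9% and 25.5% of all genes, with a median log2 fold change of -0.01. DCHS1, a large protocadherin that binds FAT4, had 43.0, 28.3, 79.7 and 32.5 CPM with vehicle and 12.2, 11.3, 10.0 and 11.5 CPM with TP-472. It fell by 2.03 ± 0.309 on the log2 scale (edgeR adjusted p = 0.00166), and by 1.62 without vehicle replicate 3. WWC3, a scaffold of the KIBRA family, fell by 1.02 ± 0.216 (adjusted p = 0.00731), and by 0.78 without that library. RASSF1, a scaffold that binds STK3 and STK4, rose from 20.3 ± 2.90 to 36.4 ± 3.05 CPM (log2 fold change of 0.85 ± 0.130, adjusted p = 0.00175), and RASSF2, of the same family, from 1.43 ± 0.014 to 2.71 ± 0.669 CPM (0.92 ± 0.207, adjusted p = 0.00970). These values were 0.95 and 0.92 without vehicle replicate 3. Also called, and named after their values were seen, were RASSF5 (0.84 ± 0.187 on the log2 scale, 0.92 without vehicle replicate 3), FRMD6 (0.73 ± 0.124, and 0.63) and RASSF4 (-0.80 ± 0.164, and -0.64). FRMD6 was not called with GC content removed (0.57). NF2, the tumor suppressor merlin, and FAT1, a protocadherin, had the highest levels per kilobase, 31.1 and 24.2 CPM with vehicle. NF2 was at 190.5, 169, 354 and 179 CPM with vehicle and at 265, 256, 253 and 258 CPM with TP-472. Vehicle replicate 3 was above and the other vehicle libraries were below all TP-472 libraries, and its log2 fold change was 0.21 ± 0.228 (adjusted p = 0.488) or 0.52 without that library (adjusted p = 9.71e-05, 9.71e-05 to 0.759 over alternatives, under the fold limit). FAT1 had a log2 fold change of 0.04 ± 0.121 (adjusted p = 0.796), and of -0.03 without that library. DCHS2 with 12 to 23 counts in a library, RASSF6 with 9 to 27 and FAT4 were under the filter. FAT4, the partner of DCHS1, had 6, 11, 8 and 5 counts with vehicle and 45, 19, 23 and 36 with TP-472, so that its counts were higher in every TP-472 library. When no filter was used 9 of the 23 regulators were called in edgeR, 6 higher and 3 lower, FAT4 among the higher. Over all genes that fit called 5090 of 33192, 2393 higher and 2697 lower.

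Of the TEAD family and other TEAD cofactors, the vestigial-like proteins, 6 of 8 genes were tested and 3 were called, beside 26.9% of all genes, with TEAD2 and TEAD3 lower and VGLL3 higher. The count without vehicle replicate 3 was 1 higher and 1 lower, beside 25.5% of all genes. With GC content removed, where TEAD4 was called and TEAD2 was not, it was 2 higher and 1 lower, beside 28.2%. VGLL3, which binds TEAD proteins at the same face as YAP and TAZ, had 1.44, 1.12, 0.955 and 0.843 CPM with vehicle and 2.10, 1.92, 2.41 and 2.91 CPM with TP-472. The groups did not overlap, and VGLL3 rose by 1.10 ± 0.226 on the log2 scale (edgeR adjusted p = 0.00663), or by 1.04 without vehicle replicate 3, at a level not far above the filter. VGLL1, with 0 to 2 counts, and VGLL2, with 0 in all libraries, were not tested. Among 12 genes of the retention and turnover of YAP and TAZ, 1 was called, beside 26.9% of all genes, and 1 without vehicle replicate 3, beside 25.5%. It was SFN, the 14-3-3 protein sigma, which fell from 2.77 ± 0.972 to 1.20 ± 0.231 CPM (log2 fold change of -1.21 ± 0.276 SE, adjusted p = 0.0102, and -0.95 without vehicle replicate 3). YWHAQ and YWHAE, 14-3-3 proteins with the highest levels per kilobase of this list (188 and 107 CPM with vehicle), had log2 fold changes of 0.30 ± 0.192 and 0.32 ± 0.210 (adjusted p of 0.245 and 0.259), or 0.13 for both without vehicle replicate 3.

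**Figure D5:**
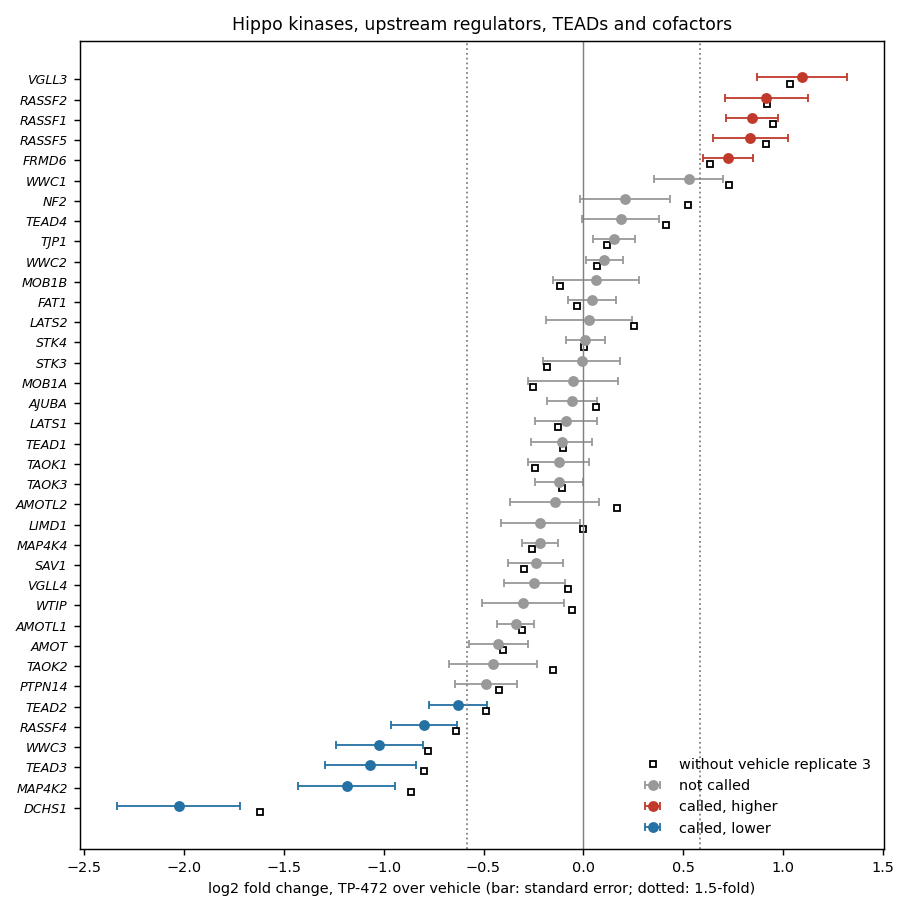
Log2 fold change of TP-472 over vehicle (horizontal axis) with its standard error for the Hippo kinases and scaffolds, the upstream regulators, the TEAD genes and the vestigial-like cofactors (1 upstream regulator is not drawn), colored by whether the gene was called, with open squares for the value without vehicle replicate 3. DCHS1 lies lowest and VGLL3 highest, and the kinases LATS1, LATS2, STK3 and STK4 lie near 0.

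The genes most like YAP1 across the 8 libraries, by Pearson's r of log2 CPM, were SRGAP2C (0.997), IL1R1 (0.997) and DSTYK (0.995). The genes most like WWTR1 were AP003486.1 (0.962), CDK13 (0.943) and CAST (0.937). These values describe libraries that fall in 2 groups and differ in depth and in their trend with GC content, and reads of SRGAP2C may be shared with its near-identical paralogs.

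The labelled origin was set beside smooth muscle markers. Of 8 markers 6 passed the filter, while MYH11 and MYOCD did not. MYH11, the smooth muscle myosin heavy chain, had 0, 0, 0 and 1 counts with vehicle and 10, 8, 7 and 10 with TP-472, so its few counts were higher with TP-472 and the groups did not overlap. MYOCD, the smooth muscle coactivator, had 0 to 8 counts in a library. The summed level of the list was 241, 268, 345 and 271 CPM with vehicle and 190.0, 193, 179.9 and 172 CPM with TP-472. ACTA2, smooth muscle actin, was its most abundant gene in CPM, and DES, LMOD1 and TAGLN were called lower, beside 14.9% of all genes, DES from 3.25 ± 0.203 to 0.629 ± 0.169 CPM. DES and LMOD1 passed the filter only through the vehicle libraries, so they had to differ to be tested at all. Leaving out vehicle replicate 3 gave 4 called lower, ACTA2 being added, and with GC content removed 2, without TAGLN. Of the 14073 genes tested these fits called 1889 and 2076 lower, and 25.5% and 28.2% in either direction. CNN1, calponin, had a log2 fold change of 0.13 ± 0.254 and was not called. The part of this lower summed level in the results above was not tested. Of 4 mesenchymal markers all were tested, with VIM, an intermediate filament, the most abundant. Of the 4, 1 was called, which is near the 26.9% of all genes. The gene called was PDGFRB, a growth factor receptor, which fell by 2.33 ± 0.268 on the log2 scale (edgeR adjusted p = 4.46e-04), or by 2.03 without vehicle replicate 3. VIM, THY1 and CDH2 had log2 fold changes of -0.41 ± 0.178, 0.25 ± 0.190 and 0.11 ± 0.152. Of 6 epithelial markers EPCAM, CDH1 and CLDN4 were under the filter in these libraries. KRT18 was called higher and KRT19 lower, beside 12.0% and 14.9% of all genes. Both were also called without vehicle replicate 3, beside 25.5% of all genes in either direction. With GC content removed KRT18 and KRT8 were called higher and KRT19 was not called, beside 28.2% of all genes in either direction. None of 3 endothelial and none of 4 leukocyte markers passed the filter, with CD3E at 0 in all libraries, and their summed levels were at most 0.581 and 1.07 CPM in any library.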

How the data were processed

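RNA-seq libraries of SK-UT-1 cells were grouped by the treatment in the labels, 4 with TP-472 (5 µM, 48 h) and 4 with vehicle. As deposited by the authors, the values are estimated counts, made with Salmon 1.4.0 per the submitters' processing notes and summed by gene with GENCODE release 34, neither normalized nor filtered. Of the values in a library 13.8% to 23.2% were not whole, and they were rounded here. Genes over 1 CPM in at least 4 of 8 libraries (14073 of 60282) were scaled by TMM and tested over the whole table with the quasi-likelihood test of edgeR 4.0.16 in R 4.3.3, with Benjamini-Hochberg adjustment and no covariate. This design was chosen here. The paper lists a t-test and a Mann-Whitney test for its experiments in general, but names no differential-expression tool for the RNA-seq. The fit was first tested on simulated counts. Alternatives were DESeq2 1.42.0, limma-voom (limma 3.58.1), RLE and total-count scaling, no filter and a filter of 5 CPM, a replicate block, removal of each library's trend with GC content (lowess, span of 0.3) and each library left out in turn. The last 2 combined for vehicle replicate 3, the longest coding transcript as length, and levels per kilobase without that library were added after seeing the data. Positions, exon lengths and GC content (known for 99.3% of genes tested) came from GENCODE release 29, joined by identifier without version. Promoter sequences came from RefSeq on GRCh38.p14. Library totals of 32574672 to 38545464 counts set the counting error, which is large for ANKRD1, and intervals cover counting error only.

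The 10 genes, the lists and the tests were chosen with earlier results of these data known. Named were the 10 genes, CCN1, CCN2, BRD9 and BRD7, and in each list the genes called among its 4 largest changes, the 2 with the highest level per kilobase and those under the filter. For YAP1 and WWTR1 the 3 most correlated genes were named. The lists were partial and written from general knowledge. The values of 1 upstream regulator are not reported here, although the counts include it.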

Additional observations from a re-analysis of the deposited data

Results flagged for a closer look

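Among the 29 genes named by rule, each looked at in both groups (58 combinations of gene and group), 11 held a library whose gap to its nearest neighbor took up more of the group's range than Dixon's 95% critical value for 4 values allows. For independent and normally distributed values 2.9 would be expected. CPM values of genes in the same libraries are not independent, so the count of 11 is a description and not a test. Of the 11 libraries 7 were vehicle replicate 3, each time the highest of its group. For TEAD2 this gap was 0.897 of the range, with 55.9 CPM against a mean of 39.6 CPM in the others. It was 0.882 for TEAD4 (40.5 against 24.3 CPM), 0.964 for AMOTL2 (206 against 105 CPM), 0.939 for MAP4K2 (53.2 against 26.6 CPM), 0.883 for NF2 (354 against 179 CPM), 0.831 for ARHGEF17 (155 against 50.6 CPM) and 0.877 for BRD9 (115 against 68.7 CPM).

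Outside that library, YAP1 was high in vehicle replicate 1, at 155 CPM against a mean of 139 CPM in the others (0.944 of the range). TP-472 replicate 4 was high for WWTR1, at 67.1 against 53.2 CPM (0.892), and low for TEAD4, at 26.8 against 34.1 CPM (0.976). ARHGEF17 was low in TP-472 replicate 3, at 16.8 against 22.6 CPM (0.857).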

How the results depend on the processing

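Of the 10 genes, TEAD3, AXL and ANKRD1 kept their calls and directions in each alternative in which they were tested, and YAP1, WWTR1, TEAD1, LATS2 and AMOTL2 were called in none. ANKRD1 was not tested with the filter of 5 CPM. TEAD2 lost its call with GC content removed (-0.36), without vehicle replicate 3 (-0.49), without TP-472 replicate 4 (-0.57) and with GC content removed without vehicle replicate 3 (-0.41), each time by falling under the fold limit. TEAD4 was called only with GC content removed (0.61). The log2 fold change of AMOTL2 changed sign with GC content removed (0.23), and with GC content removed without vehicle replicate 3 (0.26), and ran from -0.24 to 0.17 with 1 library left out. That of LATS2 was -0.0123 with total-count scaling and ran from -0.0817 to 0.2547 with 1 library left out. The causes were not tested. The 1 call among genes of retention and turnover became 0 with the filter of 5 CPM, which removed SFN. The other lists kept their counts within 1.5 times. Over all genes 3789 of 14073 were called, 5575 with DESeq2 and 5090 with edgeR when the 33192 genes with any count went in without the filter, 2672 of 11067 with the filter of 5 CPM, and 2690 to 4223 with 1 library left out.

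The replicate numbers gave no sign of pairing: the correlations of deviations of same-numbered libraries were -0.0554, 0.116, -0.171 and -0.177. Those of differently numbered libraries ran from -0.299 to 0.398. The highest was that of vehicle replicate 1 with TP-472 replicate 4. Both were the highest of their groups for YAP1, WWTR1 and TEAD1, and variation shared in this way was not modelled or tested. With the replicate block 3055 genes were called in all and 4 of the 10 genes, the same number as without it.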
